A study of Mus musculus with 8 samples.

Results

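The genes described here take up sugar from the gut, phosphorylate it or return it to glucose: the transporter genes Slc5a1, Slc5a4a, Slc5a4b, Slc2a2 and Slc2a5, the fructose kinase gene Khk, the hexokinase genes Hk1 and Hk2, and the gluconeogenesis gene Fbp1. They were chosen by name as 9 of the 19938 genes measured, through the 10 probe sets whose annotation names only a member. Hk2, Fbp1 and Slc5a4b were selected on their shifts between knockdown and control in these arrays, so the values of these 3 are a description with no test, and the other 6 were tested. The series asked what lowering YAP and TAZ, the transcriptional coactivators restrained by the Hippo pathway (TAZ is encoded by Wwtr1), does in the intestinal epithelium. All 8 arrays came from 8-week-old male mice of the outbred ICR stock. The small intestine had been transfected in the living animal and its epithelial cells isolated 4 days later. In the siRNA arm, 3 arrays labelled siYAP/TAZ (siRNAs against both genes) were set against 3 arrays labelled siGFP (an siRNA against the jellyfish protein GFP). In the shRNA arm, 1 array labelled shYAP/TAZ (plasmids for shRNAs against both genes) was set against 1 array labelled shLacZ (a plasmid for an shRNA against a bacterial enzyme). The labels assign each knockdown array a control array, which gives 4 knockdown-control pairs, and do not say what the arrays of a pair share. Whether each array stands for a mouse of its own is not labelled, and a p-value then covers the spread of these samples alone, which may be technical.

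Glucose and galactose enter the enterocyte through SGLT1 (Slc5a1), a cotransporter of the brush border that uses the sodium gradient kept up by the sodium pump. Fructose enters through GLUT5 (Slc2a5), and sugars leave towards the blood through GLUT2 (Slc2a2). Inside the cell, hexokinases trap glucose as glucose 6-phosphate, the first step of glycolysis, while ketohexokinase (Khk) phosphorylates fructose, and fructose bisphosphatase (Fbp1) works in the opposite direction to glycolysis, towards glucose. The small intestine is one of the tissues that hold gluconeogenic enzymes. Slc5a4a and Slc5a4b encode mouse members of the SGLT3 branch of the same family; the human SGLT3 protein is known as a glucose sensor rather than a transporter.

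Values are log2 intensities of quantile-normalized arrays, and each difference is the knockdown value minus the control value. The widest difference between arrays did not follow the groups: the leading principal component (56.8% of the variance) set siYAP/TAZ 2, siYAP/TAZ 3 and siGFP 3 apart from the rest. Pearson's r between arrays over all genes lay between 0.765 and 0.963. The targeted genes did not differ measurably, with differences of -0.12 for Yap1 and -0.28 for Wwtr1 in the siRNA arm (limma, adjusted p = 1.00 for both) and -0.09 and 0.06 in the shRNA pair. In siRNA pairs 1 to 3 the Yap1 differences were 0.25, -0.87 and 0.27, and those of Wwtr1 were -0.55, 0.58 and -0.86, so each was higher in some arrays labelled as a knockdown, and the word knockdown here follows the labels alone. The enterocyte markers, all 10 of which were measured, had a median level of 11.3 to 12.9 on the 8 arrays. In bulk RNA, fewer cells of a type and less RNA per cell cannot be told apart.

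No gene of the 19938 passed an adjusted p of 0.05 in limma, which is 0.0% of genes in the siRNA arm and 0.0% in the fit over both arms. Before adjustment, 237 genes in the siRNA arm and 534 over both arms had a p under 0.05. The 3 siYAP/TAZ arrays all lay above the 3 siGFP arrays for 1.6% of genes and all below them for 2.99%. Among the 9 members this held for 1 gene upward (Hk2) and 2 genes downward (Fbp1 and Slc5a4b), which are the 3 genes selected on their shifts, so nothing is read from that count. In all 4 pairs the knockdown array was the higher one for 6.02% of genes and the lower one for 8.95%. With the probe sets used in the fit, the members that ran one way in all 4 pairs were again these 3. The Hk1 probe set that was not used in the fit was also higher in all 4 pairs. The 6 members that were not selected on a shift all had overlapping groups, and 0 of them had an unadjusted p under 0.05 in the siRNA arm (limma).

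**Figure D1:**
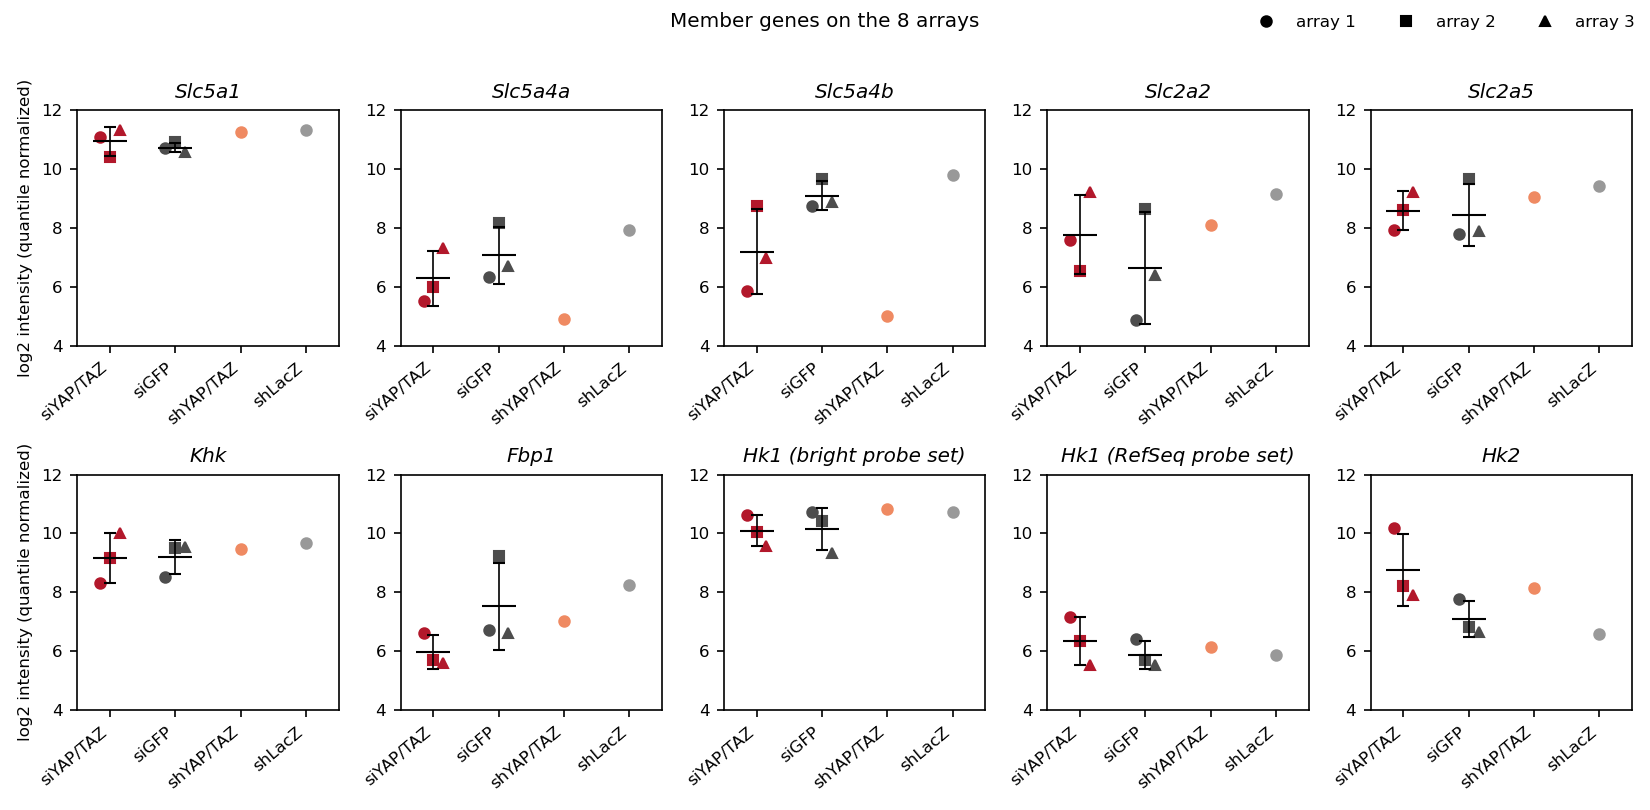
Log2 intensity (vertical axis, quantile normalized) of the member genes on the 8 arrays, by group, with Hk1 shown for both of its probe sets. Points are single arrays with the array number as the symbol, and bars are the mean and SD of 3 arrays. The siYAP/TAZ points of Hk2 lie above all siGFP points, those of Fbp1 and Slc5a4b lie below or level with them, and the other panels overlap.

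Slc5a1, which encodes the main glucose cotransporter of the brush border, stood at 11.10, 10.40 and 11.33 in siYAP/TAZ arrays 1 to 3, against 10.71, 10.91 and 10.58 in siGFP arrays 1 to 3. It was 11.25 in shYAP/TAZ and 11.34 in shLacZ. All 8 values lay within 0.94 of each other, and the lowest and the next-to-highest of them were both siYAP/TAZ arrays. The means were 10.94 ± 0.49 in siYAP/TAZ and 10.73 ± 0.17 in siGFP (SD, n = 3 each), a difference of 0.21 with a 95% interval of -0.54 to 0.96 (limma, adjusted p = 1.00). The interval reaches up to a nearly 2-fold higher level in siYAP/TAZ.

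The SGLT3 genes varied far more. Slc5a4a stood at 5.52, 6.01 and 7.33 in the siYAP/TAZ arrays, against 6.33, 8.18 and 6.70 in the siGFP arrays, and at 4.91 in shYAP/TAZ against 7.94 in shLacZ. The shYAP/TAZ array was the lowest of the 8 and siYAP/TAZ 1 the next lowest, but siYAP/TAZ 3 was above the siGFP arrays 1 and 3, so the siRNA groups overlapped. The group means were 6.29 ± 0.94 in siYAP/TAZ and 7.07 ± 0.98 in siGFP (SD, n = 3 each), a difference of -0.78 with a 95% interval of -2.13 to 0.56 (limma, adjusted p = 1.00). Slc5a4a was 8.15-fold lower in shYAP/TAZ than in shLacZ, the 23rd lowest difference of all genes in that pair. That pair has 1 array a group and no replicate check.

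Slc5a4b, selected on its shift, stood at 5.87, 8.75 and 6.97 in the siYAP/TAZ arrays, against 8.75, 9.66 and 8.88 in the siGFP arrays. It was 5.0 in shYAP/TAZ and 9.81 in shLacZ. The 4 knockdown arrays were the 4 lowest, but siYAP/TAZ 2 and siGFP 1 were level: they were 0.0007 apart, and centring the arrays on their 75th percentile in place of quantile normalization made the groups overlap, with a gap of -0.0275. The means were 7.20 ± 1.45 in siYAP/TAZ and 9.10 ± 0.49 in siGFP (SD, n = 3 each), a difference of -1.90, or 3.73-fold lower in siYAP/TAZ. Without siYAP/TAZ 1 the difference was -1.23. In the 3 siRNA pairs the knockdown array was lower by 2.88, 0.91 and 1.90 on the log2 scale, and in the shRNA pair by 4.82, or 28.2-fold. The value of 5.0 in shYAP/TAZ lay in the dimmest 7.5% of genes of that array, as did 4.91 for Slc5a4a in the dimmest 6.1%, where the size of a log2 difference can depend on how dim signal was treated. With 16 subtracted from every intensity, near the lowest value on the arrays, the shRNA pair differed by -4.03 in place of -3.03 for Slc5a4a and by -5.80 in place of -4.82 for Slc5a4b.

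Across all genes, 2.76% were at least 2-fold lower in shYAP/TAZ than in shLacZ and 1.84% at least 2-fold higher. Among the members 4 were at least 2-fold lower there (Slc5a4a, Slc5a4b, Slc2a2 and Fbp1) and 1 at least 2-fold higher (Hk2). The selection of Slc5a4b, Fbp1 and Hk2 may have used this pair, so nothing is read from the count. Both SGLT3 genes were thus lowest of all 8 arrays in shYAP/TAZ, and similar sequences of the Slc5a4 family can share probe signal, so their values may not be independent of each other.

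Slc5a4a and Slc5a4b are neighbours in the RefSeq gene order of GRCm38, with 0 protein-coding genes between them, and lie on opposite strands. The 250 bases upstream of each start are shown because both genes had their lowest value in shYAP/TAZ, and those of Hk2 and Fbp1 because these genes ran in opposite directions in all 4 pairs. Sequences are from RefSeq on GRCm38.p6, given 5′ to 3′ on the strand of the gene; all 9 members had an entry. Capitals mark matches, on either strand, to 7 short motifs: a TEAD motif (GGAATG), an HNF4 motif (CAAAGTCCA), an HNF1 motif (GTTAAT), an E-box (CACGTG), a GC box (GGGCGG), a CDX2 motif (TTTATNG) and a TATA box (TATAAA). TEAD proteins are the DNA-binding partners of YAP and TAZ, and HNF4, HNF1 and CDX2 are transcription factors of the gut epithelium. A match is a run of letters and not a shown binding site.
Slc5a4a, chr10:76147201-76147450, plus strand: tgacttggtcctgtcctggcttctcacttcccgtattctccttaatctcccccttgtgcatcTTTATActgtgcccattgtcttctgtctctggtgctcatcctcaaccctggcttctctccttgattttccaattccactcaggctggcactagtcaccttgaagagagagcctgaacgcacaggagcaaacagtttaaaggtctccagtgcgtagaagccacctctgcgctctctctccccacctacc
Slc5a4b, chr10:76111019-76111268, minus strand: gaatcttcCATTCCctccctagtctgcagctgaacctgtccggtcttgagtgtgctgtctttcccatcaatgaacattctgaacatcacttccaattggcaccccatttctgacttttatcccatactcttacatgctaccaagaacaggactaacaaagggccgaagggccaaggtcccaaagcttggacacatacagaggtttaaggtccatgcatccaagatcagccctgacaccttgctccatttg
Hk2, chr6:82774455-82774704, minus strand: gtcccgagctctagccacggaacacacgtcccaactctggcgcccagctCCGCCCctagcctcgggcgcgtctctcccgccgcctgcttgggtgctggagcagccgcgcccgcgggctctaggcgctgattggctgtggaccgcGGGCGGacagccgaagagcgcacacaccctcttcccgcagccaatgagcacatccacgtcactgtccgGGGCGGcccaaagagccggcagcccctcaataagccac
Fbp1, chr13:62888283-62888532, minus strand: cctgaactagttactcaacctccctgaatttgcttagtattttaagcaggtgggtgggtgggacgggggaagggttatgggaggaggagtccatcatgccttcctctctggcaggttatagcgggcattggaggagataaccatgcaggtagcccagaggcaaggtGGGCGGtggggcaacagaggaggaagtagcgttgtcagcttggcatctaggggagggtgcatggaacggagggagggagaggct

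The 2 SGLT3 promoters had no motif match in common. That of Slc5a4b held 1 TEAD match, on the reverse strand and far from the start, letters found in 12.6% of the 32851 promoters in the RefSeq table. That of Slc5a4a held 1 TATA box match on the reverse strand, letters found in 12.4% of promoters. Aligned with gaps over 279 columns, the 2 windows had 137 identical bases, which is 54.8% of 250. No unrelated windows were aligned for comparison, so nothing is read from that share. The Hk2 promoter was rich in G and C (69.6%) and held 3 GC boxes, of which the one nearest the start lay 38 to 33 bases before it. The Fbp1 promoter had 56.4% G and C and 1 GC box, a motif with a match in 32.7% of promoters. Of the other members, Slc2a5 held 3 GC boxes as well, and Slc5a1 held 1 E-box, letters found in 6.02% of promoters. Khk held 1 E-box, 1 GC box and 1 HNF1 match, the last found in 6.43% of promoters. Slc2a2 and both entries of Hk1 held no match. No member held an HNF4 or a CDX2 match, which 0.384% and 9.81% of promoters hold.

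The GLUT genes ran in opposite directions in different pairs. Slc2a2, which encodes the exit transporter GLUT2, stood at 7.58, 6.54 and 9.21 in the siYAP/TAZ arrays, against 4.87, 8.66 and 6.40 in the siGFP arrays, and at 8.10 in shYAP/TAZ against 9.15 in shLacZ. The highest value was in siYAP/TAZ 3 and the lowest in siGFP 1, where it lay in the dimmest 4.9% of genes. The knockdown array was higher by 2.71 in pair 1 and by 2.80 in pair 3, the 36th and the 16th highest differences of all genes in those pairs. It was lower by 2.12 in pair 2, the 89th lowest difference of that pair, and lower by 1.05 in the shRNA pair. The means were 7.78 ± 1.34 in siYAP/TAZ and 6.64 ± 1.91 in siGFP (SD, n = 3 each), a difference of 1.13 with a 95% interval of -1.02 to 3.29 (limma, adjusted p = 1.00). It was 0.24 without siGFP 1 and 2.14 without siGFP 2.

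Slc2a5, which encodes the fructose transporter GLUT5, stood at 7.92, 8.62 and 9.23 in the siYAP/TAZ arrays, against 7.78, 9.66 and 7.91 in the siGFP arrays, and at 9.06 in shYAP/TAZ against 9.42 in shLacZ. The highest value was in siGFP 2 and the lowest in siGFP 1, so the control group spanned the whole range. The means were 8.59 ± 0.66 in siYAP/TAZ and 8.45 ± 1.05 in siGFP (SD, n = 3 each), a difference of 0.13 with a 95% interval of -1.12 to 1.39 (limma, adjusted p = 1.00). The pairs had the signs of Slc2a2, with 0.13, -1.05 and 1.32 in siRNA pairs 1 to 3 and -0.36 in the shRNA pair.

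Khk, whose product commits fructose to metabolism, stood at 8.33, 9.17 and 10.00 in the siYAP/TAZ arrays, against 8.52, 9.50 and 9.54 in the siGFP arrays, and at 9.48 in shYAP/TAZ against 9.66 in shLacZ. The highest and the lowest array were both labelled siYAP/TAZ. The means of 9.16 ± 0.84 in siYAP/TAZ and 9.19 ± 0.58 in siGFP (SD, n = 3 each) differed by -0.03, with a 95% interval of -1.11 to 1.06 (limma, adjusted p = 1.00).

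Genes of the proximal small intestine varied over the arrays in a way that in part resembled Slc2a2. The 11 measured of 12 proximal markers had a median level of 6.30, 7.19 and 8.87 in the siYAP/TAZ arrays, against 6.21, 9.75 and 7.87 in the siGFP arrays, and of 8.94 in shYAP/TAZ against 9.22 in shLacZ. As for Slc2a2, the siGFP value was lowest in array 1 and highest in array 2, and the siYAP/TAZ value was highest in array 3. The lowest siYAP/TAZ value, however, was in array 1 for the marker median and in array 2 for Slc2a2. The median difference of these markers was 0.28, -2.48 and 0.36 in siRNA pairs 1 to 3, with the same signs as Slc2a2, Slc2a5 and Slc5a1, and -0.23 in the shRNA pair. In pairs 1 and 3 it was far smaller than the 2.71 and 2.80 of Slc2a2. The 13 ileal markers had medians of 9.28, 10.64 and 7.78 in the siYAP/TAZ arrays, against 10.80, 8.20 and 10.45 in the siGFP arrays. Their median level was 8.17 in shYAP/TAZ and 9.28 in shLacZ. The median difference of the ileal markers was -0.60, 0.57 and -1.29 in siRNA pairs 1 to 3, with signs opposite to the proximal ones. In the shRNA pair it was -0.07, so the typical ileal marker differed little there despite the lower median level. The part of the gut region in the values of the transporters was not tested.

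**Figure D2:**
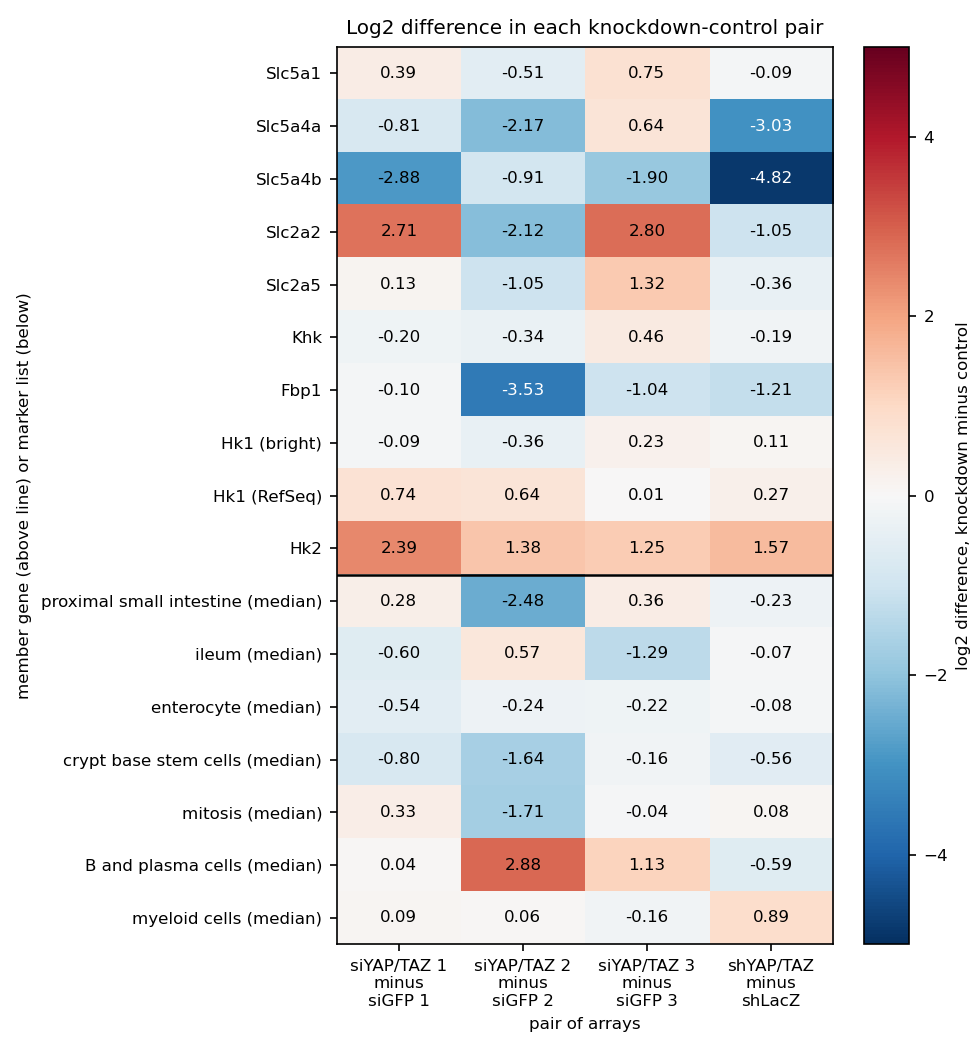
Log2 difference (colour and printed value, knockdown minus control) of each member gene, above the line, and the median difference of 7 marker lists, below it, in the 3 siRNA pairs and the shRNA pair. Hk2 is positive and Slc5a4b and Fbp1 are negative in all 4 columns, while Slc2a2 reads 2.71, -2.12, 2.80 and -1.05.

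Of the hexokinase genes, Hk2, selected on its shift, encodes the hexokinase held at the mitochondrial surface that is inducible in many tissues. It stood at 10.17, 8.21 and 7.92 in the siYAP/TAZ arrays, against 7.78, 6.82 and 6.66 in the siGFP arrays, and at 8.16 in shYAP/TAZ against 6.58 in shLacZ. The 4 knockdown arrays were the 4 highest of the 8, with 0.13 between siYAP/TAZ 3 and siGFP 1. The gap between the siRNA groups was 0.17 with 75th-percentile centring but only 0.02 with no normalization. The means were 8.76 ± 1.23 in siYAP/TAZ and 7.09 ± 0.61 in siGFP (SD, n = 3 each), a difference of 1.67, or 3.19-fold. The knockdown array was 5.23-fold, 2.61-fold and 2.38-fold higher in siRNA pairs 1 to 3 and 2.98-fold higher in the shRNA pair. Without siYAP/TAZ 1, its highest array, the difference was 0.97.

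Hk1, the hexokinase found in most tissues, has 2 probe sets, and they disagree. The one with the higher mean, 10.3, which stood for the gene in the fit, was 10.63, 10.06 and 9.58 in the siYAP/TAZ arrays, against 10.72, 10.42 and 9.35 in the siGFP arrays, and 10.84 in shYAP/TAZ against 10.73 in shLacZ. Its groups overlapped, with means of 10.09 ± 0.53 in siYAP/TAZ and 10.16 ± 0.72 in siGFP (SD, n = 3 each), a difference of -0.07 and a 95% interval of -1.06 to 0.92 (limma, adjusted p = 1.00). The annotation gives this probe set 1 accession, which 18 probe sets list, and 16 of those also list Rpl17, a gene of the large ribosomal subunit. Over the 8 arrays its level followed the mean of those 16 with a Pearson's r of 0.993.

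The other Hk1 probe set, which the annotation ties to RefSeq transcripts of the gene, had a mean of 6.08. It was 7.16, 6.34 and 5.52 in the siYAP/TAZ arrays, against 6.43, 5.70 and 5.52 in the siGFP arrays, and 6.13 in shYAP/TAZ against 5.86 in shLacZ. The knockdown array was higher in all 4 pairs, by 0.74, 0.64, 0.01 and 0.27, but the siRNA groups overlapped, with means of 6.34 ± 0.82 in siYAP/TAZ and 5.88 ± 0.48 in siGFP (SD, n = 3 each). Its r with the 16 probe sets was 0.636, and with the brighter Hk1 probe set 0.568. Which of the 2 measured Hk1 was not tested.

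**Figure D3:**
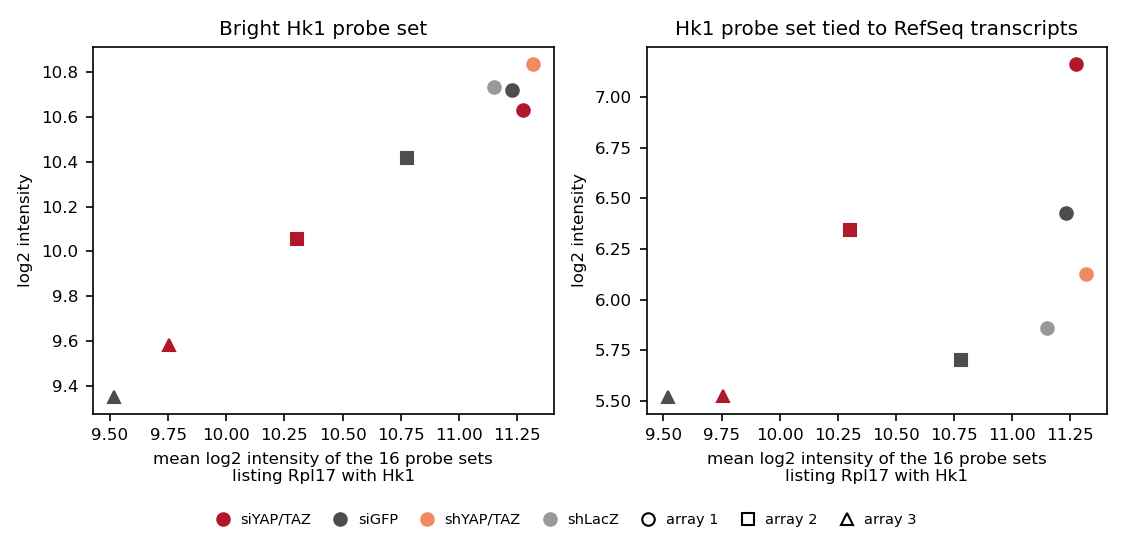
Log2 intensity of the 2 probe sets that name only Hk1 (vertical axes) against the mean log2 intensity of the 16 probe sets that list Rpl17 together with Hk1 (horizontal axes), with 1 point per array. The brighter probe set follows the line of the Rpl17 probe sets with r = 0.993, the other with r = 0.636.

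Fbp1, selected on its shift, encodes the enzyme that removes a phosphate from fructose 1,6-bisphosphate on the way to glucose. It stood at 6.63, 5.69 and 5.59 in the siYAP/TAZ arrays, against 6.72, 9.22 and 6.63 in the siGFP arrays, and at 7.04 in shYAP/TAZ against 8.24 in shLacZ. The siYAP/TAZ arrays were the 3 lowest, but siYAP/TAZ 1 and siGFP 3 were only 0.0009 apart, and siGFP 2 stood far above the other siGFP arrays. The means were 5.97 ± 0.57 in siYAP/TAZ and 7.52 ± 1.47 in siGFP (SD, n = 3 each), a difference of -1.55, or 2.94-fold lower in siYAP/TAZ. The difference was -0.71 without siGFP 2 and -0.57 without both arrays numbered 2, a setting chosen after the data were seen. By pair it was -0.10, -3.53 and -1.04 in the siRNA arm and -1.21 in the shRNA arm.

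Some markers of cell types and gut region also differed in mean between the siRNA groups, beside the shifts of Hk2, Fbp1 and Slc5a4b. All 11 measured of 12 B and plasma cell markers had a higher mean in siYAP/TAZ, with a median level of 5.29 to 8.27 in the siYAP/TAZ arrays and 5.10 to 5.67 in the siGFP arrays. All 12 crypt base stem cell markers had a lower mean in siYAP/TAZ, with median levels of 6.18 to 6.93 in siYAP/TAZ and 6.34 to 8.09 in siGFP. By pair, the B and plasma cell median was 0.04, 2.88 and 1.13 in the siRNA arm and -0.59 in the shRNA pair. The crypt base median was negative in all 4 pairs, as Slc5a4b and Fbp1 were. It was -0.80, -1.64 and -0.16 in the siRNA arm and -0.56 in the shRNA pair. In every pair 7 of the 12 markers were lower, beside 8.95% of all genes. The enterocyte median was also negative throughout, at -0.54, -0.24 and -0.22 in the siRNA arm and -0.08 in the shRNA pair. Of 10 enterocyte markers 8 had a lower siYAP/TAZ mean, and 4 were lower in every pair. Of 13 ileal markers 10 had a lower mean, and of 7 measured goblet markers 6. Over all 19938 genes, 10692 had a lower mean. All 15 measured of 16 mitosis markers had a lower siYAP/TAZ mean, with median levels of 5.50 to 8.19 in siYAP/TAZ and 5.39 to 7.99 in siGFP, and pair medians of 0.33, -1.71 and -0.04 in the siRNA arm and 0.08 in the shRNA pair. Of the 7 measured of 8 Paneth cell markers, 6 had a lower siYAP/TAZ mean, with median levels of 7.95 to 10.1 in siYAP/TAZ and 8.13 to 10.5 in siGFP, and pair medians of -0.02, -1.66 and 0.35 in the siRNA arm and -0.45 in the shRNA pair. No marker is listed at 0, since every array intensity was above 16. The part of these cells in the members' differences was not tested.

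Around the members, 9 lists of 115 genes covered other sugar handling genes, regulators of sugar sensing and transport, and hypoxia-responsive genes. Of these genes 100 were measured. None passed in the siRNA arm or over both arms (limma), and before adjustment 1 gene of the siRNA arm (Pfkfb3) and 3 over both arms had a p under 0.05. Among all 19938 genes these counts were 237 and 534. The siYAP/TAZ arrays all lay above the siGFP arrays for 2 of the 100 (Bnip3 and Pgls) and all below for 2 (Atp1b1 and Slc2a8), beside 1.6% and 2.99% of all genes. The gaps between the groups were 0.038 for Bnip3, 0.0005 for Pgls, 0.0078 for Atp1b1 and 0.048 for Slc2a8. In all 4 pairs 11 were higher and 10 lower, beside 6.02% and 8.95% of all genes. The median siRNA difference over all genes was -0.02, with 9246 genes higher and 10692 lower in siYAP/TAZ.

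The other sugar transporters had 8 of 15 genes higher and 7 lower in the siYAP/TAZ mean, with a median difference of 0.01. Slc2a1, which encodes the widespread glucose transporter GLUT1, stood at 9.79, 7.22 and 6.64 in the siYAP/TAZ arrays, against 8.39, 7.01 and 6.32 in the siGFP arrays, and at 8.11 in shYAP/TAZ against 7.58 in shLacZ. The knockdown array was the higher in every pair, but the difference of 0.65 (SE 0.82) was within the spread of the arrays, since arrays 1 were high in both groups. Slc5a11 encodes an inositol cotransporter and Slc2a13 a proton and inositol cotransporter. Both were lower in all 4 pairs, with siRNA differences of -0.86 (SE 0.67) and -0.86 (SE 0.43). In siRNA pair 3, however, Slc5a11 was all but level, at -0.001. Slc2a12 had a siRNA difference of 0.39.

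In the list of other hexokinases and glycolysis, 16 of 21 measured genes were higher and 5 lower in the siYAP/TAZ mean, with a median of 0.16. The median was -0.04 without siYAP/TAZ 1. Pfkfb3, whose product makes the activator of the committing step of glycolysis, had the widest difference of the list. It stood at 9.53, 7.40 and 9.93 in the siYAP/TAZ arrays, against 5.97, 7.40 and 7.90 in the siGFP arrays, and at 8.75 in shYAP/TAZ against 8.01 in shLacZ. Arrays 2 were level and the groups overlapped, with a difference of 1.86 (SE 0.71; limma, adjusted p = 1.00). Pkm, a pyruvate kinase gene, was higher in all 4 pairs with a siRNA difference of 0.61 (SE 0.33). Eno3, an enolase gene, was lower in all 4 pairs with a siRNA difference of -0.78 (SE 0.39) and was 4.55-fold lower in the shRNA pair.

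The remaining hexokinase genes did not share the direction of Hk2 in every pair. Hk3 had pair differences of 0.10, 0.88 and -0.45 in the siRNA arm and 0.26 in the shRNA pair. Hkdc1, a hexokinase-like gene of the gut, had -0.28, 0.53 and -0.13 in the siRNA arm and -0.36 in the shRNA pair. Both had overlapping siRNA groups.

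Beside Fbp1, the gluconeogenesis list had 5 of 11 genes higher and 6 lower in siYAP/TAZ, with a median of -0.08. Pck1, the enzyme that makes phosphoenolpyruvate for gluconeogenesis, stood at 7.91, 8.10 and 7.57 in the siYAP/TAZ arrays, against 6.94, 10.36 and 9.23 in the siGFP arrays, and at 8.98 in shYAP/TAZ against 9.49 in shLacZ. The siGFP arrays spanned the lowest and the highest value of all 8, and the difference was -0.99 (SE 0.74; limma, adjusted p = 1.00). Like Fbp1, Pck1 was highest in siGFP 2. G6pc, the last step towards free glucose, differed by -0.33, Gpt, an alanine aminotransferase gene, by 0.64 and Got1, an aspartate aminotransferase gene, by 0.35.

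In fructose and galactose use, 2 of 5 measured genes were higher and 3 lower in siYAP/TAZ, with a median of -0.10. Galm, which interconverts the forms of galactose before it is phosphorylated, stood at 7.83, 7.79 and 8.71 in the siYAP/TAZ arrays, against 9.16, 10.11 and 8.33 in the siGFP arrays, and at 7.11 in shYAP/TAZ against 9.88 in shLacZ. Its order of arrays resembled that of Slc5a4a: the shYAP/TAZ array was lowest, siGFP 2 highest, and pair 3 alone had the higher value in the knockdown array. Its siRNA difference was -1.09 (SE 0.48; limma, adjusted p = 1.00). The differences of the others named were -0.38 for Gpd1, -0.10 for Galt and 0.08 for Tkfc.

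Among the disaccharidases, which release the sugars that the members carry, 1 of 4 was higher and 3 were lower in siYAP/TAZ, with a median of -0.38. Lct (lactase) stood at 7.78, 10.53 and 12.22 in the siYAP/TAZ arrays, against 9.39, 12.01 and 11.87 in the siGFP arrays, and at 8.32 in shYAP/TAZ against 11.86 in shLacZ. Arrays 1 were the lowest of each siRNA group, and the shRNA pair differed 11.7-fold. The siRNA differences were -0.92 (SE 1.08) for Lct, -0.45 for Treh (trehalase), -0.31 for Sis (sucrase-isomaltase), which was lower in all 4 pairs, and 0.12 for Mgam.

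Of 14 measured sugar sensing and transport regulators, 6 were higher and 8 lower, with a median of -0.08. Mlxipl, which encodes the carbohydrate response factor ChREBP, stood at 8.91, 9.64 and 10.80 in the siYAP/TAZ arrays, against 10.35, 10.48 and 10.96 in the siGFP arrays, and at 10.32 in shYAP/TAZ against 10.66 in shLacZ. It was lower in the knockdown array of each pair, with overlapping groups and a difference of -0.81 (SE 0.47; limma, adjusted p = 1.00). Txnip, a gene induced by ChREBP, differed by 0.54, Sgk1 by -0.54 and the sweet taste receptor gene Tas1r2 by 0.47. The 3 measured sodium pump genes, Atp1b1, Fxyd3 and Atp1b3, differed by -0.17, -0.08 and 0.00. In the pentose phosphate and hexosamine list 6 of 15 were higher and 9 lower, with a median of -0.07. Pygb, a glycogen phosphorylase gene, was lower in all 4 pairs with a siRNA difference of -0.97 (SE 0.52). Pgm2 differed by -0.40, Rpia by 0.33 and Ugp2 by -0.28.

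Hk2 is itself widely known as a hypoxia-responsive gene. Of the 12 other hypoxia-responsive genes, all measured, 7 were higher and 5 lower in siYAP/TAZ, with a median of 0.10. In all 4 pairs 3 of the 12 were higher, beside 6.02% of all genes: Adm, a vasodilator peptide gene, Higd1a, a mitochondrial protein gene, and Bnip3, a mitophagy receptor gene, with siRNA differences of 0.74, 0.51 and 0.17. Adm was all but level in siRNA pair 2, at 0.002. Ddit4 differed by 0.47 and Ndrg1 by -0.52. None of these passed (limma).

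**Figure D4:**
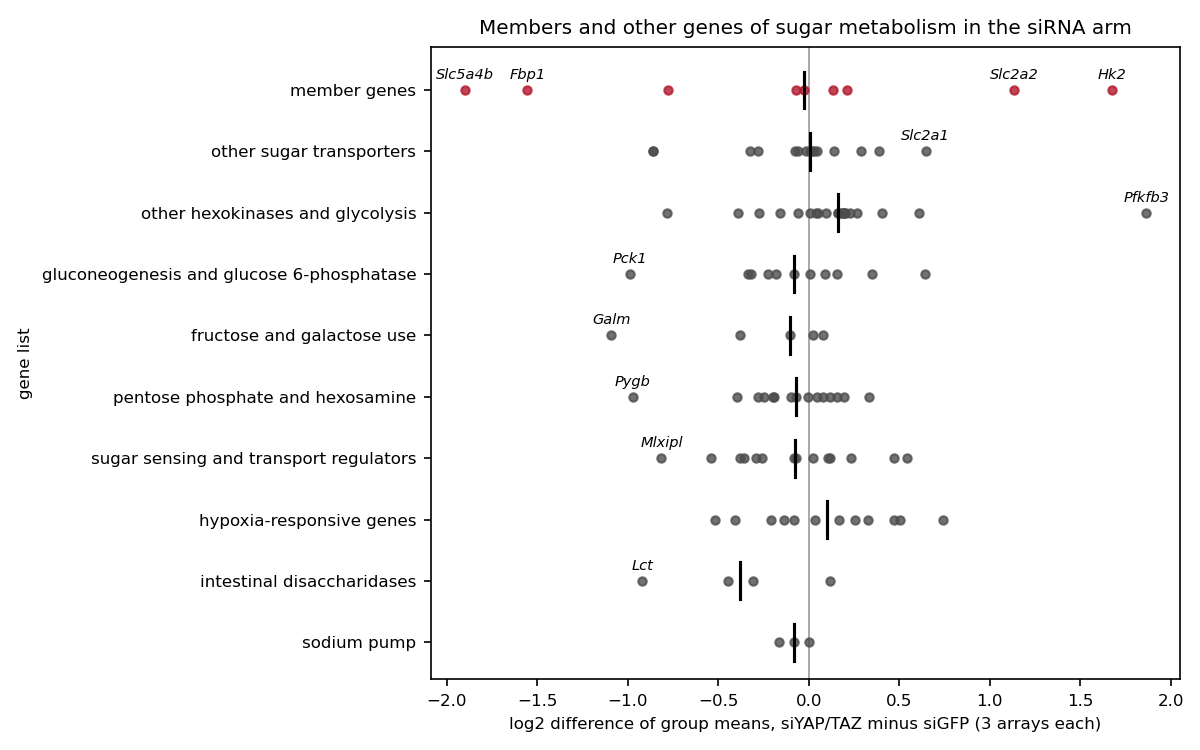
Log2 difference of group means, siYAP/TAZ minus siGFP with 3 arrays each (horizontal axis), of the 9 member genes and of 9 lists of other genes (rows). The lists hold sugar handling genes, regulators and hypoxia-responsive genes. Points are genes, black bars are list medians, and the gene names mark single points. Slc5a4b at -1.90 and Hk2 at 1.67 stand at the ends of the member row, Pfkfb3 at 1.86 is the widest point of the other rows, and the list medians lie between -0.38 and 0.16.

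The genes whose levels over the 8 arrays were most like those of each member were taken from 12523 named genes outside the dimmest 33%, by Pearson's r. Antigen receptor segments, receptors of smell and pheromones, and genes known only by a predicted name were passed over. The levels of the gut region and cell type markers differed between the arrays. Genes that vary with such markers can share a high r over 8 points, so the r is a description only. The part of gut region or cell mixture in it was not tested. Slc5a4a was followed most closely by Mgst3 (r = 0.987), a glutathione transferase gene, Ugt2a3 (0.976) and Cyp2c65 (0.971). Slc5a4b was followed by Ugt2b5 (0.983), Adgrd1 (0.976) and Tsc22d1 (0.974). Slc2a2 was followed by Dhrs1 (0.954), Sec24d (0.928) and Fabp1 (0.914), the enterocyte fatty acid binding protein gene, and Slc2a5 by Arhgef26 (0.907), Adh6a (0.894) and Adh1 (0.892), an alcohol dehydrogenase gene. Cyp2c65, Fabp1 and Adh1 are on the list of proximal markers.

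Slc5a1 was followed by Atp5o (0.954), a subunit gene of mitochondrial ATP synthase, Ccdc51 (0.941) and Bpnt1 (0.934). Khk was followed by Creb3l2 (0.982), Slc25a36 (0.949) and Sec24a (0.946). Fbp1 was followed by Etfb (0.954), which encodes a mitochondrial electron carrier subunit, Mtmr1 (0.952) and Gclm (0.927), which encodes a subunit of the glutathione synthesis enzyme. For Hk2 the closest genes were Srp19 (0.973), of the signal recognition particle, Tmsb10 (0.958), an actin-binding peptide gene, and Prss27 (0.942). For the brighter Hk1 probe set they were Rps7 (0.990), Rps20 (0.988) and Angel1 (0.988), of which the first 2 encode ribosomal proteins. For the other Hk1 probe set they were Zfp330 (0.968), Pomgnt1 (0.951) and Sting1 (0.945), none of them a ribosomal protein gene.

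Over both arms, with the arm as a term, the 6 tested members had differences of 0.14 for Slc5a1, -1.34 for Slc5a4a, 0.59 for Slc2a2, 0.01 for Slc2a5, -0.07 for Khk and -0.03 for Hk1 (limma, adjusted p = 1.00 for each). The 3 members selected on their shifts had 1.65 for Hk2, -1.47 for Fbp1 and -2.63 for Slc5a4b, given as a description. This fit assumes that the lone shRNA arrays vary as the siRNA arrays do.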

How the data were processed

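Total RNA of 8 samples was labelled with biotin and measured on 1 Affymetrix array each, per the labels' protocols. The deposited values are intensity values, 1 per probe set and array; how the authors corrected background, summarised and scaled them was not given in the sources used here. Median intensities ran from 76.4 to 95.5, and the lowest value on any array was 16.0005. The small number of arrays limits the precision.

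Intensities, as deposited, were log2 transformed and then quantile normalized. Of 28853 probe sets, 21789 named 1 gene in the platform annotation, 1621 named several and were not used, and 5443 had no listed gene. For 21698 of those naming 1 gene, the symbol was taken through the Entrez identifier from a RefSeq gene table of GRCm38, whether or not it changed. Each of 19938 genes was represented by the probe set with the highest mean over the 8 arrays. Samples were grouped by their titles. The functions lmFit and eBayes of limma 3.58.1 (R 4.3.3) compared siYAP/TAZ with siGFP, and in a second fit all 8 arrays with the arm as a term, two-sided, with Benjamini-Hochberg adjustment over all genes at a threshold of 0.05. The fit was tested on simulated data. Promoter sequences are those of RefSeq on GRCm38.p6.

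The members, lists and marker sets were chosen with earlier results of these data known. Genes named are the 9 members, up to 4 genes of each list with the largest absolute siRNA difference, a few fixed key enzymes where measured, Yap1 and Wwtr1, and the 3 genes most like each member. Bnip3, Pgls and Slc2a8 fall outside this rule and are named because their groups did not overlap. Alternatives were another normalization or none, 16 subtracted before log2, the mean of all probe sets, the dimmest 33% left out, other variance settings and weights, a replicate block, and single arrays or pairs left out.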

Additional observations from a re-analysis of the deposited data

Results flagged for a closer look

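G6pc, the glucose 6-phosphatase gene, ran one way in the siRNA pairs and the other way in the shRNA pair. The knockdown array was lower by 0.01, 0.73 and 0.26 in siRNA pairs 1 to 3 and higher by 0.93 in the shRNA pair. The siRNA difference minus the shRNA difference was -1.263 on the log2 scale, and the test of that difference gave an adjusted p of 1.00 (limma, interaction of arm and knockdown), with 1 array a group in the shRNA arm.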

How the results depend on the processing

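The 0 genes called in the siRNA arm (limma) became 0 to 13 when single arrays were left out, the 13 (11 higher and 2 lower) without siYAP/TAZ 1. The count was 61 (45 higher and 16 lower) without both arrays numbered 1, a setting chosen after the data were seen. The replicate block gave 1 call in the siRNA arm and 4 over both arms. Same-numbered arrays deviated from their group means with correlations of 0.755, -0.130 and 0.571, while siYAP/TAZ 2 with siGFP 3 reached 0.583. The main fits therefore did not pair the samples by number. The pairs described above follow the labels alone. Hk2, Fbp1, Slc5a4b, Slc5a4a and Slc2a2 kept their direction under all 17 alternatives run. Their single-array ranges were, in that order, 0.97 to 2.10, -2.0 to -0.71, -2.68 to -1.23, -1.30 to -0.22 and 0.24 to 2.14. For Slc5a4a, however, almost no difference was left without both arrays numbered 2, at -0.085. For Hk2, Fbp1 and Slc5a4b, whose siRNA groups did not overlap, leaving out arrays or pairs could not reverse the sign. Other variance settings, the replicate block, the filter on dim genes and the mean of probe sets left all these differences unchanged. The kept direction was therefore fixed in advance under those settings, and nothing is read from it there. Members with small differences changed sign. Slc5a1 was -0.062 without both arrays numbered 3. Slc2a5 ran from -0.20 to 0.74 without single arrays and was -0.46 without both numbered 3. Khk ran from -0.44 to 0.39, and was 0.47 with array weights, 0.061 without both numbered 1 and 0.13 without both numbered 2. The brighter Hk1 probe set ran from -0.48 to 0.21, and was 0.0017 with 75th-percentile centring, 0.20 with the mean of both probe sets and 0.074 without both numbered 2; the other Hk1 probe set gave 0.46. Causes were not tested. No tested member passed under any alternative, with the lowest adjusted p at 0.263 for Hk1 and 0.434 or more for the others (limma). The glycolysis median was 0.01 without both arrays numbered 3. Signal over background limits the dimmest values, for which no detection calls were used here.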
